A study of Mus musculus with 8 samples.

Results

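Heat shock protein 90 (HSP90) and co-chaperones that run its cycle were followed in the mouse Sertoli cell line TTE3 over 24 h at 39 °C. The 10 genes listed were Hsp90aa1, Hsp90ab1, Ahsa1, Stip1, Fkbp4, Fkbp5, Chordc1, Ptges3, Cdc37 and the heat shock factor Hsf1. Every probe set that the array's annotation ties to 1 of these symbols alone was taken. That gave 12 of 22626 probe sets, for 7 of the 10 genes. Hsp90ab1 and Hsf1 were not analysed here, and Ptges3 was left out because both of its probe sets carry several symbols. Of the 12 probe sets, 10 passed the filter on low signals and were tested, and 1 probe set each of Fkbp4 and Cdc37 did not pass.

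Sertoli cells are the somatic nurse cells of the seminiferous tubule. The TTE3 line was derived from mice with a transgene for the simian virus 40 large T-antigen in a temperature-sensitive form, which loses its activity at 39 °C, and every group has this transgene. The groups were cells after 0 h, 6 h, 12 h and 24 h at 39 °C, with 2 Affymetrix 430A arrays each and 8 in all. By their labels the 0 h cells had spent no time at 39 °C. No group was kept at another temperature for 6, 12 or 24 h. Hours of heat, hours without active T-antigen and time in culture therefore cannot be told apart.

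HSP90 is an abundant ATP-driven chaperone that completes the folding of kinases, steroid receptors and other clients handed over by HSP70. Co-chaperones set the pace of its cycle: STIP1 bridges HSP70 and HSP90, AHSA1 speeds ATP hydrolysis, PTGES3 holds the closed state, CDC37 delivers kinases, and the immunophilins FKBP4 and FKBP5 join steroid receptor complexes. HSF1 is the transcription factor of the heat shock response, is held inactive by HSP90 in unstressed cells, and binds heat shock elements made of alternating GAA and TTC units. In the mouse testis, HSP90AA1 is known as the HSP90 form that male germ cells need to complete spermatogenesis.

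RefSeq promoter windows (GRCm38.p6, 250 bases before to 50 after the annotated start) were at hand for 7 of the 10 genes, Ahsa1, Stip1, Fkbp4, Fkbp5, Chordc1, Ptges3 and Cdc37. They were searched for the paired units GAANNTTC and TTCNNGAA, each of which reads the same on both strands. One or other pair occurred in 3 of the 7 windows, those of Chordc1, Fkbp4 and Cdc37, and in 15.1% of all 32851 windows. GAANNTTC alone was in 7.86% and TTCNNGAA alone in 8.52% of all windows. The longer form of 3 alternating units at the same spacing, which contains both pairs in overlap, was in the Chordc1 window and in 0.603% of all windows. Of the tested members, Chordc1 and Fkbp4 had the largest rises at 6 h and Cdc37 did not pass the test. Ahsa1 and Stip1 also rose at 6 h, and their windows held no pair. A link between pairs and rises was not tested. The stretches shown are those of all 3 members whose windows held a pair. They are written 5′ to 3′ on the gene's strand, with the matching units in capitals, for Chordc1 at chr9:18292216-18292296 (plus strand), Fkbp4 at chr6:128438764-128438844 (minus strand) and Cdc37 at chr9:21150061-21150141 (minus strand).
Chordc1: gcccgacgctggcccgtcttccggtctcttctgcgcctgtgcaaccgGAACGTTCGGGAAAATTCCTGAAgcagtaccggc
Fkbp4: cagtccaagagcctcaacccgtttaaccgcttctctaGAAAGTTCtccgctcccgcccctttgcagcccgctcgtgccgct
Cdc37: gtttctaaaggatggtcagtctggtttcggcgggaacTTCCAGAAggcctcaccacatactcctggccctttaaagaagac
In Chordc1 the units formed 1 run of 23 bases that crossed the annotated start, beginning 4 bases before it and ending at base 19, with 4 overlapping matches. A further single pair lay at bases 34 to 41. The pair in Fkbp4 began 151 bases before the start and that in Cdc37 began 170 bases before it. The windows of Ahsa1, Stip1, Fkbp5 and Ptges3 held none of these letters, which says nothing of other parts of those genes. A match of letters was not tested as a binding site.

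Signals are the deposited probe set intensities in array units, scaled to a common mean. Log2 differences are of signal plus an offset of 21.9 units, given ± the standard error of the fit, with n = 2 arrays per time. A probe set was called where limma's adjusted p, by Benjamini-Hochberg over 13576 tested probe sets, was below 0.05. The labels do not say if arrays of the same time stem from separate cultures, and the p-values cover only the spread between arrays, which may be technical. Bulk RNA cannot tell fewer expressing cells from less RNA per cell. Signal levels of different probe sets do not give the genes' relative expression and were not compared as such.

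Most of the HSP90 set was higher at 6 and 12 h than at 0 h, and less of it at 24 h. Over the 4 times, 9 of the 10 tested probe sets changed in the moderated F-test, against 40.1% of all tested probe sets. At 6 h against 0 h, 7 of 10 rose and none fell, where 8.65% of all tested probe sets rose and 9.33% fell, 18% in all. The 7 stood for 5 of the 7 genes, Hsp90aa1, Ahsa1, Stip1, Fkbp4 and Chordc1. At 12 h 8 of 10 were higher than at 0 h, where 12.1% of all rose, 11.9% fell and 24% did either. At 24 h 2 of 10 were higher, where 17.1% of all rose and 32.9% rose or fell. With all 8 arrays none of the 10 tested probe sets was called lower than at 0 h at any time by limma, and none was lower at an unadjusted p below 0.05. The members' median log2 difference from 0 h was 0.70 at 6 h, 0.60 at 12 h and 0.17 at 24 h, beside 0.0026, 0.0053 and 0.016 over all tested probe sets. The comparisons with 0 h share the same 2 arrays at 0 h.

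**Figure D1:**
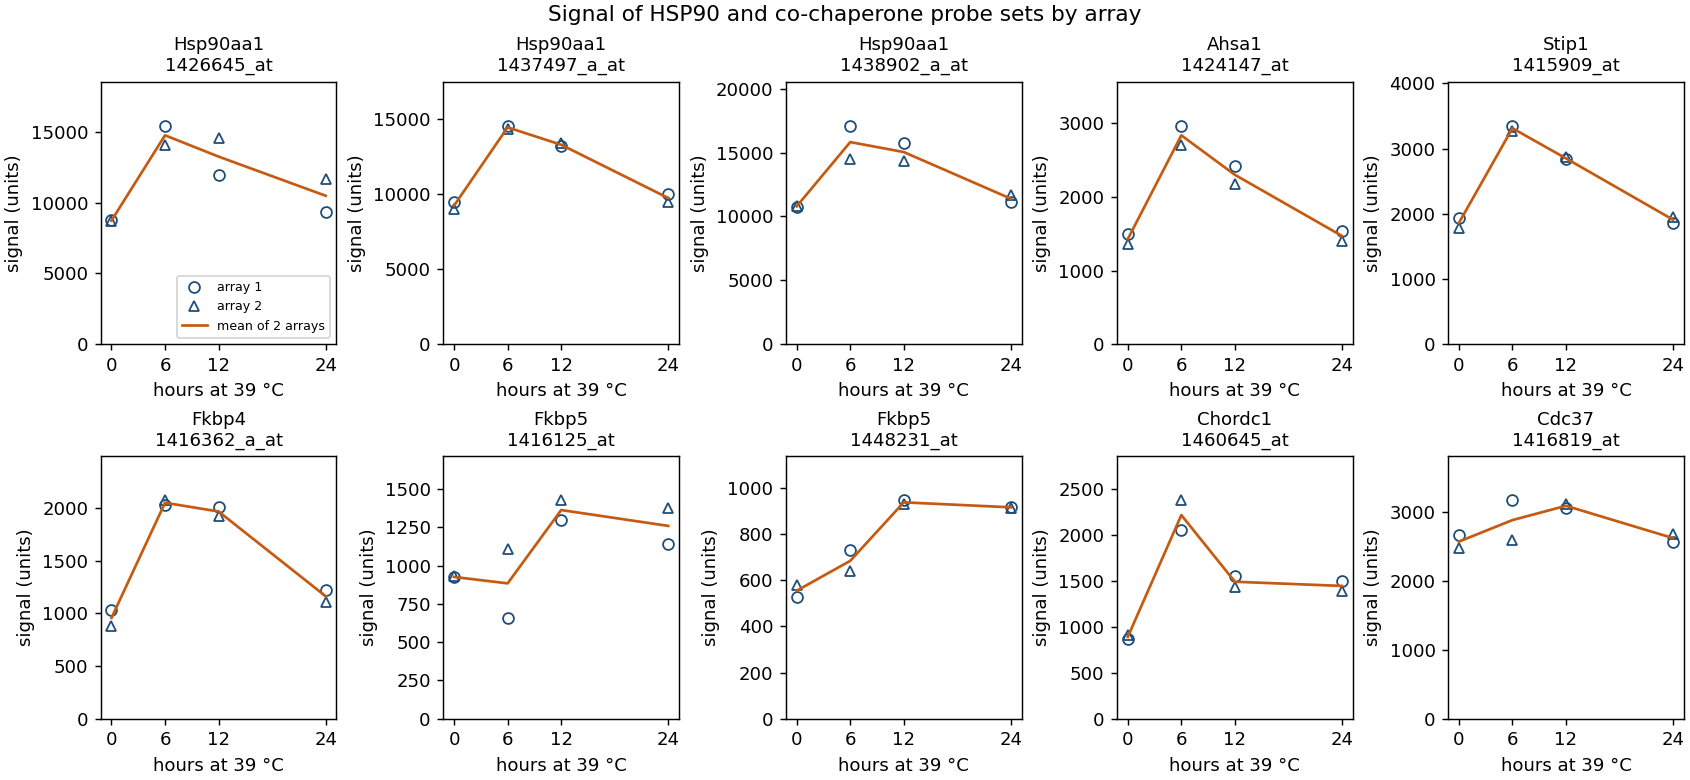
Signal in array units (vertical axis, from 0) against hours at 39 °C for the 10 tested probe sets, with circles and triangles for the arrays numbered 1 and 2 and a line through their mean. Hsp90aa1, Ahsa1, Stip1, Fkbp4 and Chordc1 have their highest mean at 6 h, while Fkbp5 has its higher signals at 12 and 24 h. Of the genes highest at 6 h, only Chordc1 was called lower at 12 h than at 6 h.

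Hsp90aa1 encodes the heat-inducible cytosolic form of HSP90 and was read by 3 probe sets. Probe set 1437497_a_at gave 9494 and 9001 units at 0 h, 14584 and 14348 at 6 h, 13208 and 13402 at 12 h, and 9999 and 9500.4 at 24 h. All 6 h and 12 h arrays lay far above the other 4, and the 24 h arrays lay just above those of 0 h. Probe set 1426645_at gave 8759 and 8707 units at 0 h, 15444 and 14072.5 at 6 h, 11918 and 14588 at 12 h, and 9314 and 11657 at 24 h. Its 12 h and 24 h pairs were the most spread. Probe set 1438902_a_at gave 10769 and 10818 units at 0 h, 17119 and 14535 at 6 h, 15728 and 14365 at 12 h, and 11108 and 11675 at 24 h. Here too every 6 h and 12 h array lay above every 24 h array, and those above the 0 h pair.

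All 3 Hsp90aa1 probe sets rose at 6 h, by 0.64 ± 0.09 for 1437497_a_at (1.56-fold, limma adjusted p = 0.000713), 0.75 ± 0.13 for 1426645_at (adjusted p = 0.00258) and 0.55 ± 0.10 for 1438902_a_at (adjusted p = 0.00447). The rise of 1438902_a_at had adjusted p = 0.0518 without the 0 h array numbered 1. At 12 h the log2 differences from 0 h were 0.52, 0.59 and 0.48, all called. Those of 1426645_at and 1438902_a_at each lost the call without either 0 h array or without 1 of the 12 h arrays (limma adjusted p from 0.0518 to 0.0636). At 24 h they were 0.08, 0.25 and 0.08, and none passed the test.

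Ahsa1, the activator of the HSP90 ATPase, was nearly 2-fold higher at 6 h, and its 24 h signals overlapped those of 0 h. Its signals were 1489.8 and 1364 units at 0 h, 2968.5 and 2704 at 6 h, 2424 and 2175.5 at 12 h, and 1532 and 1408 at 24 h. The 6 h, 12 h and 0 h pairs were fully apart from one another in that order, and the 24 h pair overlapped that of 0 h. The rise was 0.98 ± 0.10 at 6 h (1.97-fold, limma adjusted p = 0.000171) and 0.68 at 12 h (adjusted p = 0.000996), and the difference at 24 h was 0.04 (adjusted p = 0.796).

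Stip1, also known as Hop, links HSP70 and HSP90 so that clients pass from one to the other. Its signals were 1935 and 1782 units at 0 h, 3352 and 3270.4 at 6 h, 2833 and 2866 at 12 h, and 1862 and 1953.5 at 24 h. The order of the pairs was that of Ahsa1, with 6 h above 12 h and 24 h overlapping 0 h. Stip1 was higher by 0.83 ± 0.09 at 6 h (1.77-fold, limma adjusted p = 0.000211) and by 0.61 at 12 h (adjusted p = 0.000848), with a difference of 0.04 at 24 h (adjusted p = 0.788).

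Fkbp4 and Fkbp5 encode related immunophilins that compete for steroid receptor complexes. FKBP4 is known to favour hormone binding and nuclear transport of the glucocorticoid receptor, while FKBP5 lowers its affinity for hormone. Fkbp4 (1416362_a_at) gave 1033 and 884 units at 0 h, 2028 and 2077 at 6 h, 2013 and 1925 at 12 h, and 1221 and 1107 at 24 h. Its 6 h and 12 h pairs were about level and lay above every other array. The log2 differences from 0 h were 1.08 ± 0.11 at 6 h (2.12-fold, limma adjusted p = 9.89e-05), 1.03 at 12 h (2.04-fold, adjusted p = 0.000102) and 0.28 at 24 h (adjusted p = 0.069). The 24 h difference passed the test in a fit of 0 h and 24 h alone (adjusted p = 0.0477) and without either 6 h array. The second Fkbp4 probe set, 1416363_at, was dim, between 12.7 and 81.9 units over the 8 arrays, and lay under the filter. In a fit with no filter none of its differences passed (limma adjusted p from 0.107 to 0.935), and at 24 h it lay below 0 h, opposite in sign to the brighter probe set.

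Fkbp5 was read by 2 probe sets. Probe set 1448231_at gave 528 and 580 units at 0 h, 729 and 638 at 6 h, 946 and 927 at 12 h, and 918 and 912 at 24 h. All 12 h and 24 h arrays lay above all earlier ones. Its log2 difference from 0 h was 0.29 ± 0.11 at 6 h (limma adjusted p = 0.0945), 0.74 at 12 h (1.67-fold, adjusted p = 0.0009) and 0.70 at 24 h (1.63-fold, adjusted p = 0.000705). At 6 h the adjusted p was 0.0416 without the 6 h array numbered 2.

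Probe set 1416125_at of Fkbp5 gave 923 and 929 units at 0 h, 659 and 1109.6 at 6 h, 1299 and 1427.5 at 12 h, and 1139.7 and 1379 at 24 h. Its 6 h arrays lay on either side of the 0 h pair, and without either of them the 12 h and 24 h differences passed the test. With all 8 arrays the log2 differences were -0.11 ± 0.19 at 6 h (limma adjusted p = 0.737), 0.55 at 12 h (adjusted p = 0.0607) and 0.43 at 24 h (adjusted p = 0.113). At 6 h without the array numbered 2 the difference was -0.48 (adjusted p = 0.0266), and without the array numbered 1 it was 0.26 and not called. The direction of this probe set at 6 h therefore turned on 1 array.

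Chordc1 encodes a zinc-binding HSP90 partner, also called morgana, and had the largest rise of the tested members at 6 h. Its signals were 873 and 908 units at 0 h, 2054 and 2378 at 6 h, 1549 and 1432 at 12 h, and 1498 and 1392 at 24 h. The 6 h pair lay above all others, and the 12 h and 24 h pairs overlapped each other above 0 h. The log2 difference from 0 h was 1.29 ± 0.11 at 6 h (2.45-fold, limma adjusted p = 3.03e-05), 0.73 at 12 h (1.66-fold, adjusted p = 0.000774) and 0.68 at 24 h (1.61-fold, adjusted p = 0.000642). Chordc1 and Fkbp5 were the members called higher at 24 h.

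Cdc37, the adaptor that brings kinases to HSP90, did not pass the test. Probe set 1416819_at gave 2665 and 2467 units at 0 h, 3166 and 2589 at 6 h, 3055.5 and 3114 at 12 h, and 2558 and 2675 at 24 h. The 12 h pair lay above the 0 h and 24 h pairs, and the 6 h pair spanned from the 0 h range to the highest signal. Its log2 differences from 0 h were 0.16 ± 0.11 (limma adjusted p = 0.344), 0.26 (adjusted p = 0.0998) and 0.03 (adjusted p = 0.870) at 6, 12 and 24 h. Without the 6 h array numbered 1 or 2 the 12 h difference passed the test (adjusted p = 0.0263 and 0.0257), as it did in a fit of 0 h and 12 h alone, and without array 2 the 6 h difference passed at 0.30 (adjusted p = 0.0443).

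The second Cdc37 probe set, 1416820_at, was dim and under the filter. It gave 156 and 167 units at 0 h, 55.2 and 65.5 at 6 h, 32.8 and 10.4 at 12 h, and 74.3 and 53.3 at 24 h. All later arrays lay below the 0 h arrays. In a fit with no filter it was called lower at 12 h (limma adjusted p = 0.00329) and at 24 h (adjusted p = 0.0435). Its 12 h signals were about as small as the offset of 21.9 units, so no size of the difference is given, nor a direction for the gene.

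**Figure D2:**
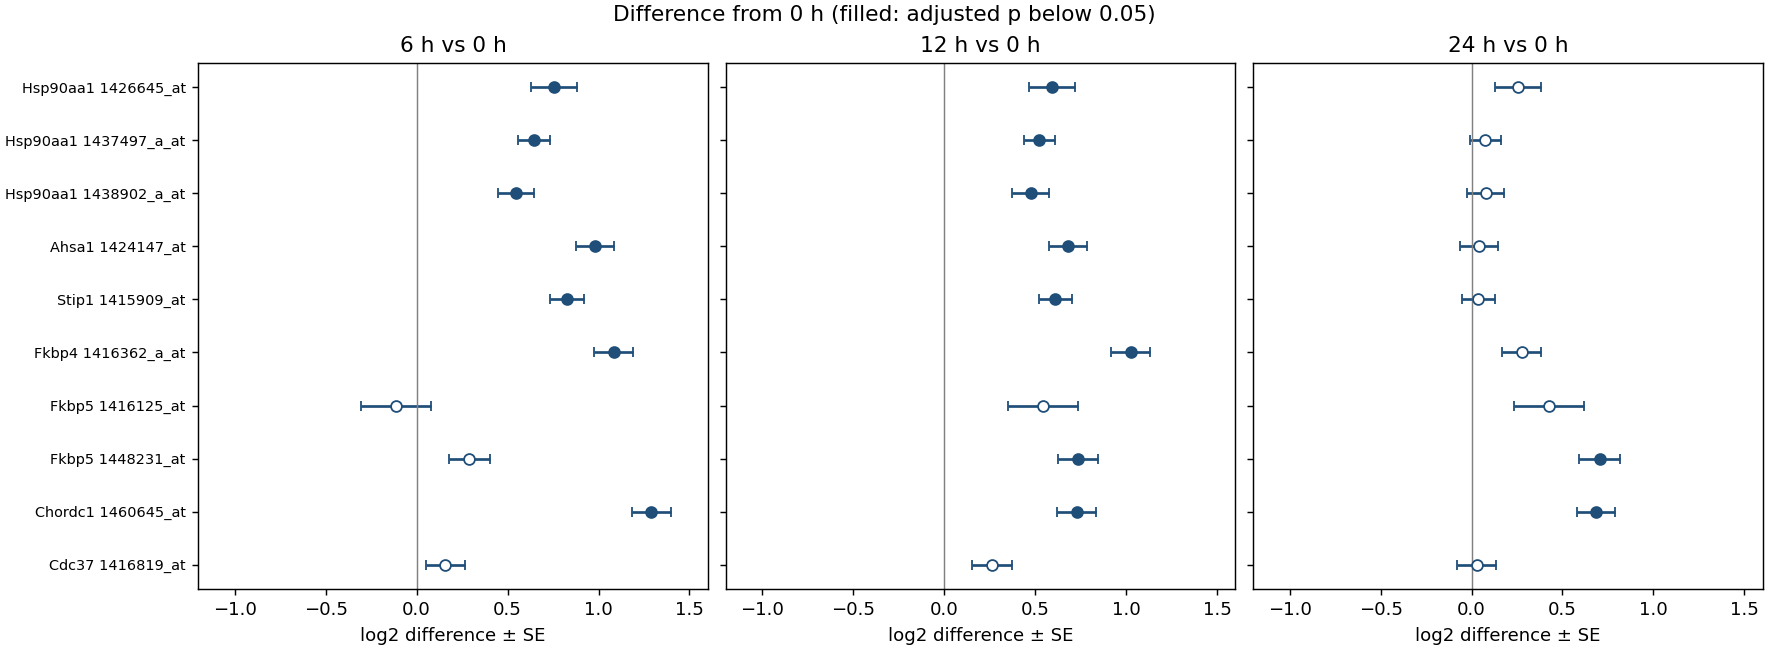
Log2 difference from 0 h (horizontal axis) ± standard error of the fit for the 10 tested probe sets at 6, 12 and 24 h, with filled points where the limma adjusted p was below 0.05. At 6 h the filled points run from 0.55 for Hsp90aa1 1438902_a_at to 1.29 for Chordc1, and at 24 h only Chordc1 and Fkbp5 1448231_at are filled.

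The return of the set was tested between later times. At 24 h against 6 h, 7 of 10 probe sets were lower and 1 was higher, where 11.3% of all tested probe sets were lower and 13.6% higher, 24.9% in all. Ahsa1 fell by 0.94 on the log2 scale (limma adjusted p = 0.000117), Fkbp4 by 0.81 (adjusted p = 0.000363), Stip1 by 0.79 (adjusted p = 0.000153) and Chordc1 by 0.61 (adjusted p = 0.002). The log2 differences of the Hsp90aa1 probe sets were -0.57 for 1437497_a_at (adjusted p = 0.000788), -0.50 for 1426645_at (adjusted p = 0.0146) and -0.47 for 1438902_a_at (adjusted p = 0.00637). Without the 24 h array numbered 1, the adjusted p of 1426645_at was 0.156 and that of 1438902_a_at was 0.0629, and 5 member probe sets in all were called. The first of these calls was also lost without the 6 h array numbered 1 (adjusted p = 0.052). The 1 probe set called higher was Fkbp5 1448231_at, at 0.41 (limma adjusted p = 0.0199), and it did not pass without the 6 h array numbered 2 or without either 24 h array (adjusted p from 0.0677 to 0.106).

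The steps between neighbouring times were tested as well. At 12 h against 6 h, Chordc1 was lower, at -0.56 on the log2 scale (limma adjusted p = 0.0116) and Fkbp5 1448231_at was higher, at 0.45 (adjusted p = 0.0342), where 3.71% of all tested probe sets were lower and 4.61% higher, 8.32% in all. The Chordc1 call had adjusted p = 0.0764 without the 12 h array numbered 2, and Fkbp5 was called under 9 of 20 settings (adjusted p from 0.0263 to 0.134). At 24 h against 12 h, 5 of 10 were lower, where 3.11% of all were lower, 3.77% higher and 6.88% either, and none was higher by limma, nor at an unadjusted p below 0.05. These were Fkbp4 at -0.75 (limma adjusted p = 0.00344), Ahsa1 at -0.64 (adjusted p = 0.00666), Stip1 at -0.57 (adjusted p = 0.00601) and 2 Hsp90aa1 probe sets. The latter were 1437497_a_at at -0.45 (limma adjusted p = 0.0134) and 1438902_a_at at -0.40 (adjusted p = 0.0396). Both lost the call with no filter, with quantile normalization and with no variance trend. The third Hsp90aa1 probe set, 1426645_at, was at -0.34 and was not called (limma adjusted p = 0.141). None of the 5 was called without the 24 h array numbered 2, 2 were called without the array numbered 1 of 24 h or of 12 h, and 3 without the 12 h array numbered 2. Chordc1 had a log2 difference of -0.04 over that step.

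**Figure D3:**
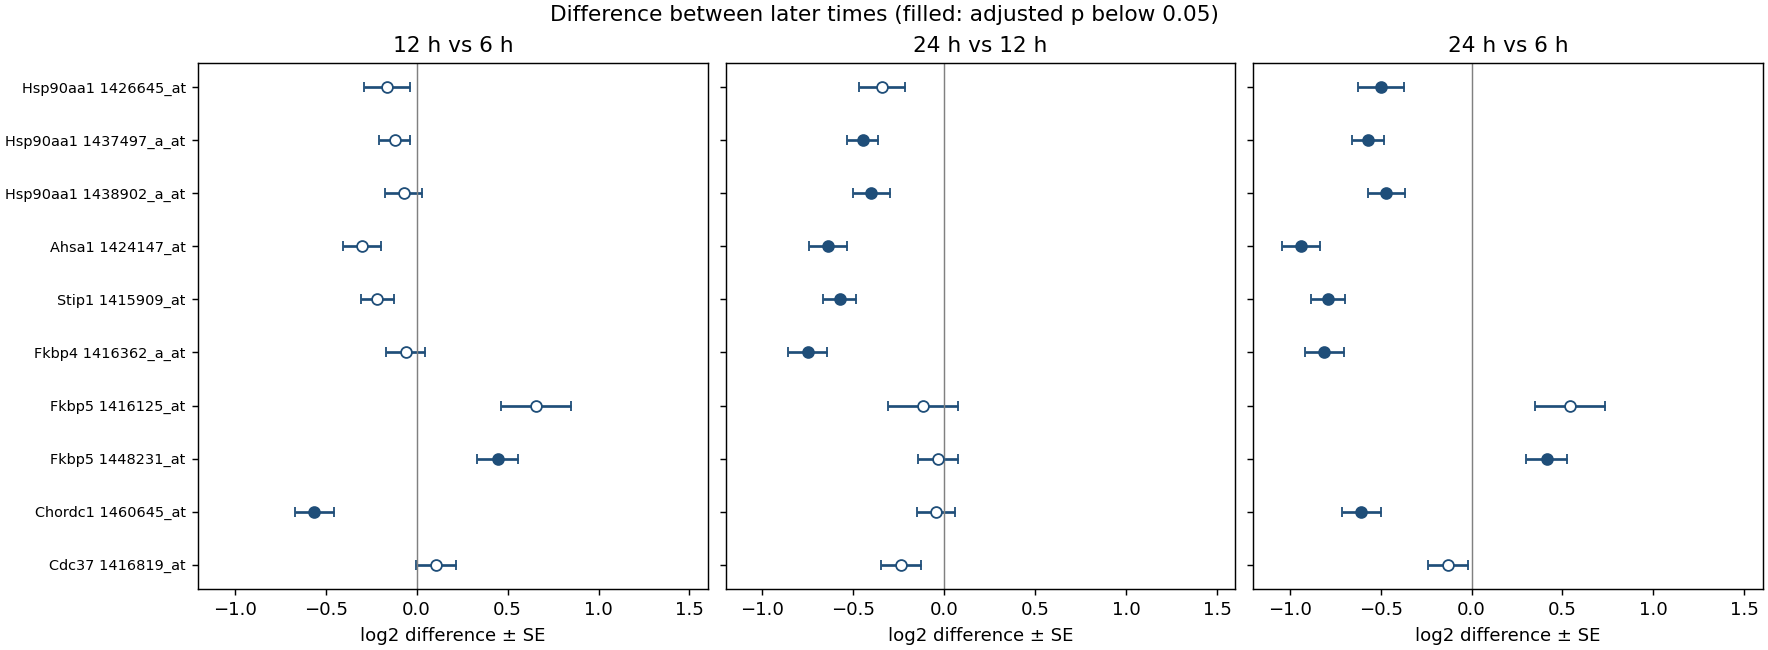
Log2 difference between later times (horizontal axis) ± standard error of the fit for the 10 tested probe sets, with filled points where the limma adjusted p was below 0.05. Most of the difference at 24 h against 6 h lies in the step from 12 h to 24 h for Fkbp4, Ahsa1 and Stip1, and in the step from 6 h to 12 h for Chordc1.

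Whether pairs of the 7 genes differed in time course was tested on the log2 difference between the genes' brightest probe sets, with an exact permutation of the time labels over 2520 assignments. None of the 21 pairs had an adjusted p below 0.05 by Benjamini-Hochberg in this exact permutation test (lowest adjusted p = 0.05). Many pairs were tied at 0.05, the threshold itself, and 16 had an unadjusted p below 0.05. The count of 0 therefore does not show that the pairs shared a time course. The smallest p the design allows is 0.00952. With the mean of a gene's probe sets in place of the brightest, 13 pairs passed. For Fkbp4 and Fkbp5 the brightest probe sets were 1416362_a_at and 1416125_at, and the latter gave 659 and 1109.6 units at 6 h. Fkbp4 minus Fkbp5, the immunophilin pair, was 0.16 and -0.07 at 0 h, 1.59 and 0.89 at 6 h, 0.62 and 0.43 at 12 h, and 0.10 and -0.31 at 24 h. These values carry no meaning as levels, and their exact permutation p was 0.019 (adjusted p = 0.05).

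HSP90 has relatives in other compartments, which were set beside the cytosolic form. Hsp90b1, the HSP90 of the endoplasmic reticulum, gave 3454 and 3404 units at 0 h, 7490.3 and 7377 at 6 h, 8800 and 7777.5 at 12 h, and 7947 and 8282 at 24 h. It rose by 1.11, 1.27 and 1.24 on the log2 scale at 6, 12 and 24 h (limma adjusted p = 3.03e-05, 8.69e-06 and 4.65e-06), and all later arrays stayed above both 0 h arrays. Trap1, the mitochondrial HSP90, had differences of -0.04, 0.21 and -0.03, and none passed the test.

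Another 24 co-chaperones of HSP90 were listed, of which 21 had a probe set and 20 were tested, each by its brightest. At 6 h 3 of 20 rose and 2 fell, and at 12 h again 3 rose and 2 fell, counts near the shares over all tested probe sets (8.65% and 9.33% at 6 h, 12.1% and 11.9% at 12 h). At 24 h 1 rose and 9 fell, where 17.1% of all rose and 15.8% fell. The list's median log2 difference from 0 h was -0.02, -0.06 and -0.23 at 6, 12 and 24 h. Ahsa2, related in sequence to Ahsa1, was the gene higher at all 3 times, by 1.15, 0.98 and 0.59. Its call at 24 h was lost without the 0 h array numbered 2 (limma adjusted p = 0.058). Cacybp, a calcyclin-binding protein, was higher by 0.68 at 6 h (limma adjusted p = 0.000907) and lower, at -0.39, at 24 h (adjusted p = 0.00864).

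Tomm70a, the mitochondrial import receptor that takes precursors from HSP90, was lower at all 3 times, at -0.51, -0.92 and -1.12 on the log2 scale. Its signals were 2360.4 and 2147 units at 0 h, 1528.5 and 1610.0 at 6 h, 1189 and 1176 at 12 h, and 1066 and 977 at 24 h, each pair below the one before. The 6 h call was lost without the 0 h array numbered 1 (limma adjusted p = 0.0774). Ruvbl1, an ATPase subunit of the HSP90 partner complex R2TP, was lower at 24 h, at -0.63 (limma adjusted p = 0.00111). Its partner Ruvbl2 was lower at 24 h too, at -0.52 (limma adjusted p = 0.00185). Ruvbl1 was called higher at 6 h by 0.35, but not without any 1 of the 8 arrays (adjusted p from 0.0567 to 0.3).

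The remaining named genes of this list lost calls when single arrays were left out. Fkbp8, a membrane-bound immunophilin, was at -0.58 at 6 h and -0.60 at 12 h, and neither call held without the 0 h array numbered 1 (limma adjusted p = 0.092 and 0.0635). Ppp5c, a phosphatase that binds HSP90, was at 0.51 at 12 h, with adjusted p = 0.102 without the 0 h array numbered 2 and 0.0753 without the 12 h array numbered 1. Pih1d1, at 0.35 at 12 h, and Rpap3, at -0.71 at 24 h, both R2TP subunits, lost their calls without either 0 h array (adjusted p = 0.284 and 0.0593 for Pih1d1 and 0.0767 and 0.0699 for Rpap3).

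Chaperones known as HSF1 targets outside the HSP90 set formed a list of 18 tested genes. At 6 h 12 rose and 1 fell, at 12 h 11 rose and 1 fell, and at 24 h 8 rose and 2 fell. Of all tested probe sets 8.65% rose and 9.33% fell at 6 h, 12.1% and 11.9% at 12 h, and 17.1% and 15.8% at 24 h. At 24 h against 6 h, 1 was higher and 9 were lower, where 13.6% of all were higher and 11.3% lower. Their median log2 difference from 0 h was 0.77, 0.68 and 0.35 at 6, 12 and 24 h, beside the 0.70, 0.60 and 0.17 of the HSP90 set. The former is over genes, each by its brightest probe set. That of the HSP90 set is over 10 probe sets, with 3 of Hsp90aa1 and 2 of Fkbp5. The 2 medians are thus not strictly alike, and their order was not tested. Hspa1a, the inducible HSP70, rose 12.1-fold at 6 h, with 270 and 307 units at 0 h, 3403 and 4085 at 6 h, 917.5 and 1090.1 at 12 h, and 551 and 669 at 24 h. Hspa1a and Hspa1b are near-identical copies and their probe sets may share RNA, and Hspa1b was at 3.10 on the log2 scale at 6 h. Hsph1, the HSP110 exchange factor of HSP70, was at 3.13, 2.31 and 1.32 on the log2 scale.

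Hspa4 fell at 6 h by 0.51 and was at -0.59 and -0.47 at 12 and 24 h, and Bag3 was at 0.66 at 6 h and -0.48 at 24 h. Without the 0 h array numbered 1 the 6 h call of Hspa4 was lost (limma adjusted p = 0.065), as was the 24 h call of Bag3 without either 0 h array (adjusted p = 0.0706 and 0.0704). Serpinh1, the collagen chaperone HSP47, and Cryab, a small heat shock protein, were still high at 24 h, at 1.36 and 1.08. One or other paired unit was in 9 of the 15 genes of this list with a promoter window, and 3 held the longer form. Of those 3, Hspd1 and Hspe1 lie head to head and share 1 element of 18 bases in overlapping windows, which is counted for both. Among the other co-chaperones 4 of 22 genes held a pair and none the longer form. Of all windows 15.1% held a pair, which the 4 of 22 lies near, and 0.603% held the longer form. A gene was counted if any of its windows matched, and some genes had several, so counts of genes and shares of windows are not strictly alike.

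Of 4 other genes listed for heat shock factors and their partners, 3 had a probe set and only Hsbp1 was tested. Of all tested probe sets 12.1% rose at 12 h and 17.1% at 24 h. Hsbp1, a small protein that binds HSF1, had log2 differences from 0 h of 0.43 at 12 h and 0.38 at 24 h, both called. Neither call held without either 0 h array (limma adjusted p from 0.095 to 0.14).

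Clients of the immunophilin branch were described through the steroid receptors. Of 6 receptors listed only Nr3c1, the glucocorticoid receptor, was tested, and it gave 858 and 741 units at 0 h, 1444 and 1277 at 6 h, 1197 and 810.1 at 12 h, and 966 and 859 at 24 h. Its 6 h pair lay above all other arrays, at 0.75 ± 0.16 on the log2 scale (limma adjusted p = 0.0102), and the call was lost without the 0 h array numbered 2 (adjusted p = 0.0947). Of 10 tested genes known as glucocorticoid receptor targets, 2 rose at 6 h, 3 at 12 h and 7 at 24 h, where 8.65%, 12.1% and 17.1% of all tested probe sets rose. None was called lower by limma, and at an unadjusted p below 0.05 there was 1 lower at 6 h, 1 at 12 h and 0 at 24 h.

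The median log2 difference of these targets from 0 h was 0.08, 0.01 and 0.61 at 6, 12 and 24 h. Ddit4, an inhibitor of mTORC1, was at 1.78, 2.13 and 2.97, and is also known as a target of p53 and of stress pathways. Cebpd, a transcription factor, was at 2.29 at 24 h, with 765 and 778 units, against 143 and 138 at 0 h. Errfi1, an inhibitor of the EGF receptor, was at 0.69 at 24 h. Its calls of 0.54 at 6 h and 0.55 at 12 h were lost without the 0 h array numbered 1 (limma adjusted p = 0.0735 and 0.0513), and the first also without the 0 h array numbered 2 (adjusted p = 0.0628). Fkbp5 is itself known as a target of the glucocorticoid receptor and was not counted in this list.

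Kinases that rely on HSP90 and Cdc37 were the other client list, with 13 of 20 genes tested. At 6 h none was called by limma, where 18% of all tested probe sets were, and none had an unadjusted p below 0.05. At 12 h 1 rose and 2 fell, where 12.1% of all rose and 11.9% fell, 24% in all. At 24 h 1 rose and 3 fell, where 17.1% of all rose and 15.8% fell, 32.9% in all. Rises and falls together, the 12 h and 24 h counts were near the shares over all tested probe sets. Egfr, the EGF receptor, was at 0.70 at 12 h and 1.45 at 24 h (limma adjusted p = 0.00426 and 2.38e-05), with 978 and 983 units at 24 h, against 365 and 324 at 0 h. Akt1 was at -0.52 and -0.63 at 12 and 24 h, Igf1r at -0.52 at 12 h, and Araf and Erbb2 at -0.51 and -0.43 at 24 h. Each of these 5 calls of a lower signal was lost without the 0 h array numbered 1 (limma adjusted p from 0.0634 to 0.348).

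**Figure D4:**
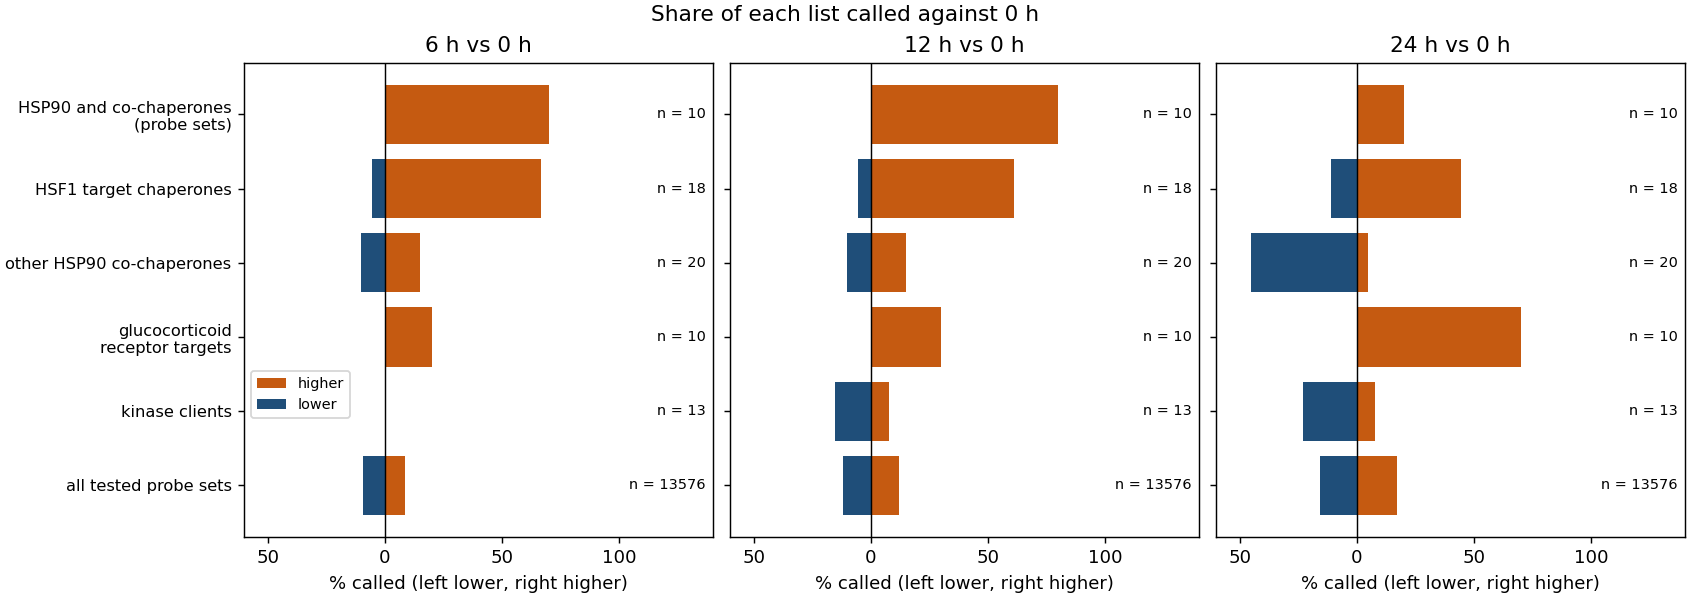
Share of tested members called higher (right of 0) and lower (left of 0) than at 0 h in percent, by list and time, with n the number tested (probe sets for the HSP90 set and for all, otherwise genes by their brightest probe set). The HSP90 set and the HSF1 target chaperones have most calls to the right at 6 and 12 h, and the glucocorticoid receptor targets have 7 of 10 there at 24 h.

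The genes most like each called member were taken by the root mean square difference of centred log2 signals over the 8 arrays, as a description with no test. For Hsp90aa1 these were Bub3 at 0.06 and Ccn4 and Rpl35 at 0.07, where the SD of Hsp90aa1 over the arrays was 0.27. For Ahsa1 they were Pvr at 0.11 and Dynll1 and Cep295nl at 0.12, and for Stip1 Cenpf at 0.08 and Slc35e4 and Umps at 0.11. Fkbp4 was closest to Ptgs2 at 0.12, Slc35e4 at 0.16 and Tinagl1 at 0.17. Chordc1 was closest to Hnrnph3 and Hspa4l at 0.12 and Nmnat1 at 0.14, and of these Hspa4l, an HSP110 relative, belongs to the heat shock list. Fkbp5 (1416125_at) was closest to Rp2 and Ywhaq at 0.09 and Smpd1 at 0.10, which had log2 differences from 0 h of -0.09, 0.02 and -0.13 at 6 h.

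The arrays were alike in overall signal, with medians from 138 to 154 units, and correlated across probe sets on the log2 scale with r from 0.979 to 0.986 within a time and from 0.967 to 0.979 between times. Of 16 measured Sertoli markers, 9 reached the filter level. Krt18, Tjp1, Clu, Kitl and Gata4 lay between the 73.3rd and 95th percentile of all probe sets, Sox9 and Wt1 at the 50.6th and 48.4th, and Amh, Gdnf, Cldn11 and Fshr between the 6.4th and 27.2nd. These ranks are of probe set signals and do not give the genes' relative expression. None of 6 germ cell and none of 5 endothelial markers reached that level, and 3 of 5 macrophage, 2 of 5 myoid and 1 of 4 Leydig markers did. The part of other cells in these results was not tested.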

How the data were processed

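Total RNA of 8 TTE3 samples was hybridised to 1 array each. The deposited intensities are linear, 1 per probe set, and how the authors computed them is not given in the sources used here. Each array's mean, with 2% of values trimmed at each end, lay from 500.18 to 500.2. The arrays had thus been scaled to a common mean, and changes in total mRNA are not visible. Precision is limited by 2 arrays per time.

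Values were log2(intensity + 21.9, the 20th percentile), which understates changes of dim genes. Probe sets with a mean log2 under the 40th percentile (6.584) were not tested. All 8 arrays entered 1 model with 4 times in limma 3.58.1 (R 4.3.3, variance trend), with a moderated F-test and 6 contrasts, 2-sided. The fit was tested on simulated data. Symbols came from the platform annotation (20380 probe sets with 1 symbol, 691 with several, 1555 unnamed here).

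The members and gene lists were chosen with earlier results of these data known. Named were all member probe sets, up to 3 rises and 3 falls per list and time (Ruvbl2, Bag3 at 6 h and Cacybp at 24 h were chosen after their values were seen), and the 3 genes most like each member. The pair test was added after seeing the data.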

Additional observations from a re-analysis of the deposited data

How the results depend on the processing

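Across 20 settings (offsets, filters, normalization, spread estimate, replicate block, single arrays left out) no called member difference changed sign. The number of members called at 24 h against 0 h was 2, and it was 4 in a fit of those 2 times and 4 with a replicate block. At 12 h against 6 h it was 2, against 1 with no filter, 1 with median-centred arrays, 1 with no variance trend, 0 with only the 2 times compared and 4 with a replicate block. At 24 h against 12 h it was 5, against 3 with no filter, 3 with quantile normalization and 3 with no variance trend. With each array left out in turn the counts ranged from 8 to 10 for the F-test, 6 to 10 at 6 h and at 12 h against 0 h, 2 to 4 at 24 h against 0 h, 0 to 2 at 12 h against 6 h, 0 to 5 at 24 h against 12 h and 5 to 8 at 24 h against 6 h. Gene pairs that passed were 0, with many tied at the threshold of 0.05, against 13 with the mean of a gene's probe sets. The cause of these moves was not tested. The replicate block kept all 32 member calls and added 6. Deviations of same-numbered arrays correlated weakly, by 0.05 to 0.18. The labels do not say if such arrays share a culture or a run, and a shared effect was not tested. Over all tested probe sets, 5447 changed in the F-test, against 3303 and 3383 without the 0 h arrays numbered 1 and 2, and at 6 h against 0 h 2441 were called, against 836 and 950. At 12 h against 0 h 3257 were called, against 1523 and 1587 without those 0 h arrays and 2084 without the 12 h array numbered 2. Calls at 24 h against 0 h were 4472, against 2595 to 2790 without an array of 0 h or 24 h. At 12 h against 6 h 1130 were called, against 644 with no filter, 606 with no variance trend, 240 with those 2 times alone and 330 to 706 without an array of 0, 12 or 24 h. At 24 h against 12 h 934 were called, against 529 with no filter, 369 with no variance trend, 84 to 488 without an array of 0, 12 or 24 h, and 1636 and 1645 without the 6 h arrays. At 24 h against 6 h 3377 were called, against 1784 and 1746 without the 24 h arrays. Dim probe sets are limited by signal over background, as for the Fkbp4 and Cdc37 probe sets under the filter.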
